A study of Schizosaccharomyces pombe with 72 samples.

Results

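Fft2 and Fft3 are paralogous Snf2-type ATPases of the Fun30 family in the fission yeast Schizosaccharomyces pombe, and libraries labelled as deleted for fft2 (SPCC1235.05c, chromosome III) were compared here directly with libraries labelled as deleted for fft3. The 3 mRNA-seq libraries labelled fft2Δ and the 3 labelled fft3Δ were taken by their group labels within experiment A, batch 1, and make up 6 of the 72 libraries of the series. All strains used here are h+ and carry the alleles ade6-M216, ura4 (SPCC330.05c, chromosome III)-D18 and leu1-32, to which the fft2Δ strain adds fft2del::kanMX and the fft3Δ strain adds fft3del::kanMX. The 3 WT libraries of the same batch carry neither deletion and are given beside them as the common background. Each group is a single strain: its 3 libraries carry 1 strain name. Although the study calls its replicates biological, the labels name no separate cultures, so that p-values measure the spread between libraries. In the test of single genes that spread is estimated over all 10 groups of the batch. All cells were grown without treatment in YES, a rich medium, at 32 °C to an OD600 of 0.5, and polyA RNA was sequenced with a kit that keeps the strand.

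Fun30 remodelers use ATP to move or evict nucleosomes and are named after a budding yeast gene. In fission yeast the family has the members Fft1, Fft2 and Fft3, of which Fft3 is known to keep silent chromatin at centromeres and near telomeres, and Fft2 and Fft3 are both known to act on Tf2 retrotransposons. Tf2 elements are long terminal repeat retrotransposons present in several nearly identical copies, and the genes near the chromosome ends include families of similar copies that are packed in heterochromatin.

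Levels are given as CPM, the estimated count over the library total scaled to 1000000, in the order of replicates 1, 2 and 3. The library totals were 7989006, 38590464 and 915980 estimated counts for fft2Δ and 1584134, 9938350 and 1403062 for fft3Δ, and 1127427 to 7990518 for WT. A count of 3 was therefore worth 3.28 CPM in fft2Δ replicate 3 and 0.0777 CPM in fft2Δ replicate 2, and values near or under 3 CPM in the shallow libraries rest on very few reads. A gene is called where edgeR's quasi-likelihood test across the 30 libraries of the batch gave an adjusted p under 0.05. Log2 fold changes are fft2Δ minus fft3Δ, with the standard error.

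The deleted genes were examined first, and only one of them was low in the libraries that should lack it. The fft3 (SPAC25A8.01c, chromosome I) gene had 157, 259 and 247 CPM in the fft2Δ-labelled libraries, against 24.6, 24.7 and 21.4 CPM in fft3Δ and 144, 156 and 169 CPM in WT. Its level in each fft3Δ library was below that of all other libraries of these groups, and the log2 fold change was 3.25 ± 0.17 (adjusted p = 5.3e-13). The fft2 gene, in contrast, had 33.0, 69.5 and 65.2 CPM in the fft2Δ-labelled libraries, against 34.1, 33.7 and 42.1 CPM in fft3Δ and 25.8, 24.8 and 28.2 CPM in WT. No fft2Δ-labelled library was below WT. The fft2 level was higher in the fft2Δ-labelled libraries than in WT by 1.12 on the log2 scale (adjusted p = 7.2e-05). It was also higher than in fft3Δ by 0.62 ± 0.17 (adjusted p = 0.029), although the groups overlap in CPM in replicate 1. That second call was lost without fft2Δ replicate 2 (adjusted p = 0.14), without fft3Δ replicate 2 (adjusted p = 0.36) and without fft3Δ replicate 3 (adjusted p = 0.059). The measured RNA of fft2 thus goes against the label, and every direction below is given for the libraries labelled fft2Δ.

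The lncRNA SPNCRNA.1117, which overlaps fft2 on the other strand, set these libraries apart far more clearly, unlike the antisense entry of fft2 given below. SPNCRNA.1117 was chosen after its values were seen. It had 100.4, 169.7 and 214 CPM in the fft2Δ-labelled libraries, against 2.25, 5.19 and 4.31 CPM in fft3Δ and 6.83, 4.94 and 3.69 CPM in WT. All 3 fft2Δ-labelled libraries were more than 10 times above every other value, and the log2 fold change was 5.23 ± 0.29 (adjusted p = 9.1e-13). The entry antisense to fft3 fell, at 0.501, 0.648 and 0 CPM in the fft2Δ-labelled libraries, against 2.53, 2.62 and 2.85 CPM in fft3Δ and 0.375, 0 and 0.645 CPM in WT (log2 fold change -2.16 ± 0.52, adjusted p = 0.014). The call was lost without fft2Δ replicate 2 (adjusted p = 0.14) and without fft3Δ replicate 2 (adjusted p = 0.07). The antisense of fft2, with 0.251, 0.182 and 0 CPM in the fft2Δ-labelled libraries, against 1.26, 0.507 and 0.74 CPM in fft3Δ, did not pass (log2 fold change -1.67 ± 0.74, adjusted p = 0.25). The third paralog fft1 (SPAC20G8.08c, chromosome I) had 4.38, 14.1 and 6.55 CPM in the fft2Δ-labelled libraries, against 5.68, 15.2 and 14.97 CPM in fft3Δ and 8.89, 7.10 and 11.0 CPM in WT, with overlapping groups (log2 fold change -0.39 ± 0.27, adjusted p = 0.53). The auxotrophic marker ura4, deleted in every strain here, was at 0 CPM in all 9 libraries except for 0.0259 CPM in fft2Δ replicate 2, and its antisense was at 0 CPM except for 0.125 CPM in WT replicate 1.

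Of the 3 nearest protein-coding genes on each side of fft2 and of fft3, by RefSeq gene order (assembly ASM294v3), 10 of 12 were not called. The gene obr1 (SPAC3C7.14c, chromosome I), a known target of the oxidative stress factor Pap1 and a near neighbour of fft3, had 1379, 902 and 1026 CPM in the fft2Δ-labelled libraries, against 2648, 3487 and 2490.4 CPM in fft3Δ and 2400.0, 1581 and 1298 CPM in WT (log2 fold change -1.26 ± 0.29, adjusted p = 0.0086). This call did not hold without fft2Δ replicate 2 (adjusted p = 0.11) and without fft2Δ replicate 3 (adjusted p = 0.084). The biotin synthase gene bio2 (SPCC1235.02, chromosome III), near fft2, had 693, 1158 and 1062 CPM in the fft2Δ-labelled libraries, against 518, 742 and 734 CPM in fft3Δ (log2 fold change 0.57 ± 0.15, adjusted p = 0.027). It was no longer called without fft3Δ replicate 2 (adjusted p = 0.093) and without fft3Δ replicate 3 (adjusted p = 0.052). For bio2 the groups overlap in CPM.

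**Figure D1:**
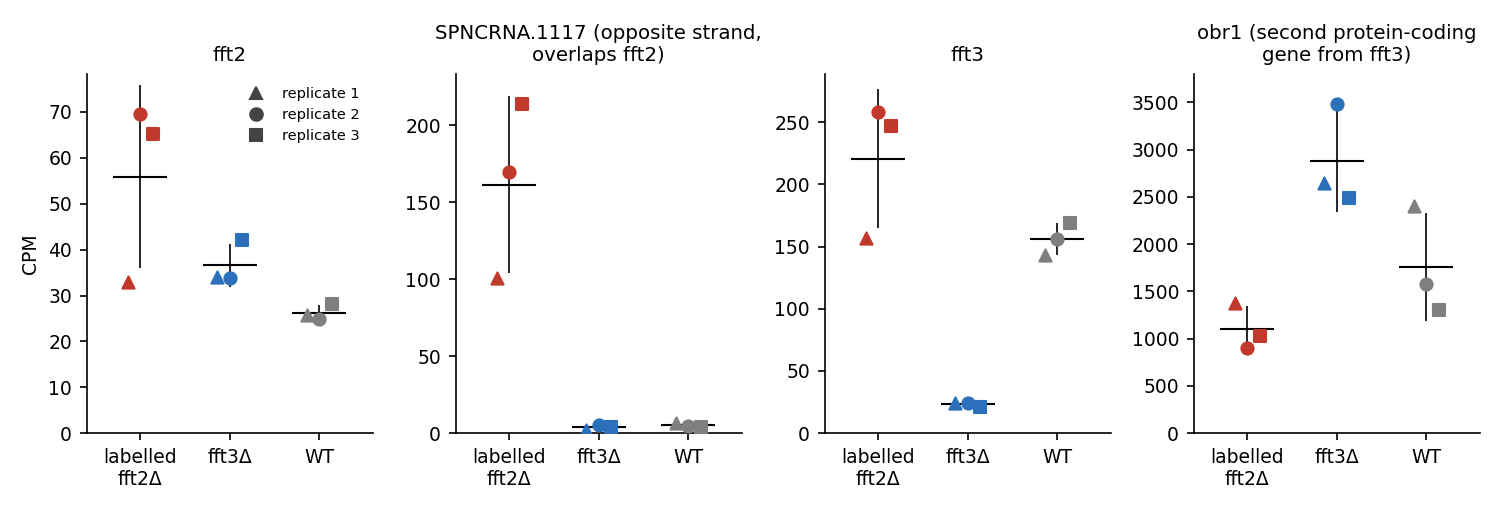
Levels in CPM of fft2, SPNCRNA.1117, fft3 and obr1 in each library labelled fft2Δ, fft3Δ and WT; triangles, circles and squares are replicates 1, 2 and 3, bars are group means and whiskers the SD (n = 3). The fft3Δ libraries have the lowest fft3 levels, at 21.4 to 24.7 CPM, whereas fft2 is not lower in the libraries labelled fft2Δ and SPNCRNA.1117 reaches 100.4 to 214 CPM there.

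Replicate 1 of both mutants stands apart from replicates 2 and 3, and in the same way. Over 3775 genes with a mean above 20 CPM, its deviation from the mean of the other replicates, on log2(CPM + 1), had r = 0.73 across genes between fft2Δ and fft3Δ, where genes are not independent replicates. In both groups 280 genes were lower in replicate 1 by more than 1 on this scale and 9 were higher by more than 1. The TMM normalization factor was 0.682 in fft2Δ replicate 1 and 0.725 in fft3Δ replicate 1, against 1.08 to 1.10 in the other 4 libraries. The CPM values given here are not divided by these factors, whereas the fitted fold changes use them. Statements on which groups overlap or lie above others rest on these CPM values. An overlap that depends on replicate 1 can therefore be absent after that scaling. The comparison of fft2Δ with fft3Δ was therefore also computed without replicate 1 of both groups, and without each library in turn. The contrasts with WT were not refitted with single libraries left out or with a block. Where a named call between fft2Δ and fft3Δ was lost on leaving out a library, or with the replicate number as a block, the library and the adjusted p stand beside it. The other named calls between fft2Δ and fft3Δ held under all of these fits.

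**Figure D2:**
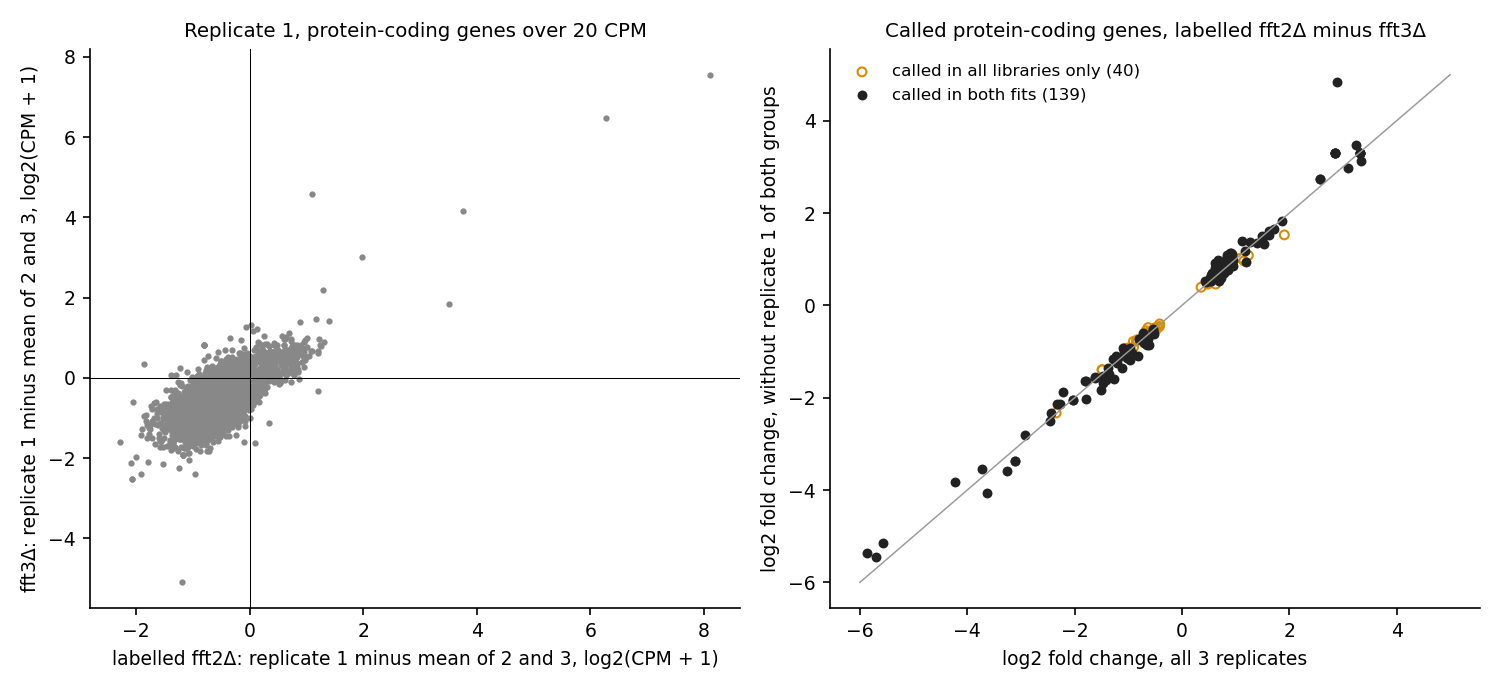
Left, replicate 1 minus the mean of replicates 2 and 3 on log2(CPM + 1), fft2Δ-labelled on the x axis and fft3Δ on the y axis, for 3775 genes (r = 0.73). Right, the log2 fold change fft2Δ minus fft3Δ of the 179 protein-coding genes called, from all 3 replicates (x axis) and without replicate 1 of both groups (y axis); 139 are called in both fits.

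Between the fft2Δ-labelled and the fft3Δ libraries, 179 of 4870 protein-coding genes tested were called (3.68%), 96 higher (1.97%) and 83 lower (1.7%) in the fft2Δ-labelled libraries. The falls were larger than the rises, with a median log2 fold change of -1.05 and 46 of 83 over 2-fold, against a median of 0.84 and 30 of 96 over 2-fold for those that rose. In CPM, the groups did not overlap in 51 of the genes that rose and in 50 of those that fell. The same count over all genes tested is not given, so no background stands beside these. Without replicate 1, 79 of the 96 and 60 of the 83 were called again. The count was set most by fft3Δ replicate 2, the deepest library of its group: without it 60 genes were higher and 33 lower. By chromosome, the genes that rose numbered 42 on I, 28 on II and 26 on III, and those that fell numbered 28, 43 and 12. The number of genes tested on each chromosome is not given beside them, so these counts show no share and no bias by chromosome. On the antisense strand of protein-coding genes, 79 of 1775 entries were called (4.45%), 17 higher (0.958%) and 62 lower (3.49%). Without fft3Δ replicate 2 there were 7 higher and 24 lower antisense calls, and without fft2Δ replicate 2 there were 22 higher and 30 lower.

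Each mutant was also set against the same WT libraries, so that these 2 contrasts share their controls. The fft2Δ-labelled libraries had 34.3% of protein-coding genes called against WT and the fft3Δ libraries 24.1%. Among the 96 genes higher in the fft2Δ-labelled libraries than in fft3Δ, 32 were called against WT in fft2Δ alone, 49 in fft3Δ alone, 9 in both, 3 of them in opposite directions, and 6 in neither. Among the 83 lower genes, 40 were called in fft2Δ alone, 28 in fft3Δ alone, 7 in both, 4 of them in opposite directions, and 8 in neither.

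**Figure D3:**
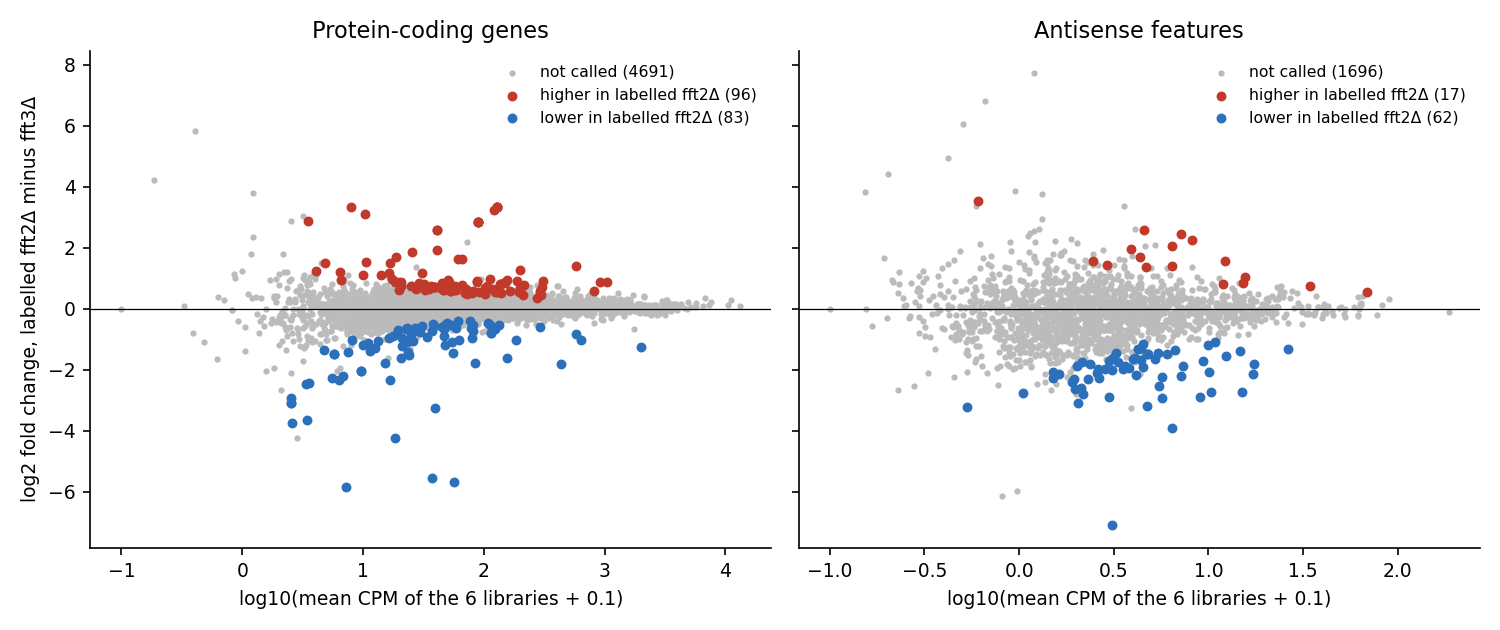
Log2 fold change fft2Δ minus fft3Δ against the mean level of the 6 libraries, log10(mean CPM + 0.1), for protein-coding genes (left) and for antisense entries (right); coloured points are called. The 62 antisense entries called lower outnumber the 17 called higher, and 96 and 83 protein-coding genes are called higher and lower.

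Tf2 retrotransposons rose together. All 13 Tf2 coding entries were tested, 11 were higher in the fft2Δ-labelled libraries, against 1.97% of all protein-coding genes, and the median log2 fold change of the 13 was 2.86, against 0.01 for all protein-coding genes. Copies so alike that their estimated counts are equal cannot be told apart. The 13 entries hold only 6 distinct sets of values, of which 4 were called higher. Summed over the 13 entries, Tf2 RNA was 1117, 2380.5 and 2269 CPM in the fft2Δ-labelled libraries, against 169, 276 and 351 CPM in fft3Δ and 212, 240.0 and 207 CPM in WT. The lowest fft2Δ-labelled library had over 3 times the sum of the highest fft3Δ or WT library. Without replicate 1, 10 of the 13 were called.

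Tf2-3, Tf2-5, Tf2-6 and Tf2-12 share 1 set of values, 127, 272 and 304 CPM in the fft2Δ-labelled libraries, against 7.51, 26.8 and 36.5 CPM in fft3Δ and 26.5, 12.5 and 29.4 CPM in WT each (log2 fold change 3.32 ± 0.31, adjusted p = 1.9e-08). Tf2-1, Tf2-2, Tf2-4 and Tf2-9 share another, 105, 200.2 and 167 CPM in the fft2Δ-labelled libraries, against 28.8, 23.6 and 10.7 CPM in fft3Δ and 14.2, 32.1 and 3.12 CPM in WT (log2 fold change 2.86 ± 0.46, adjusted p = 0.00017). Tf2-7 and Tf2-8 had 21.4, 110.3 and 78.7 CPM in the fft2Δ-labelled libraries, against 1.87, 14.5 and 16.4 CPM in fft3Δ and 10.7, 23.3 and 8.22 CPM in WT (log2 fold change 2.58 ± 0.42, adjusted p = 0.00022). In each of these sets the 3 fft2Δ-labelled libraries were all above the 3 fft3Δ libraries, with replicate 1 the lowest for Tf2-7 and Tf2-8 in both groups. Tf2-10 had 59.0, 62.4 and 64.1 CPM in the fft2Δ-labelled libraries, against 6.84, 13.6 and 38.4 CPM in fft3Δ and 9.58, 9.01 and 18.9 CPM in WT (log2 fold change 1.91 ± 0.56, adjusted p = 0.049). The test was not passed without any 1 of the 6 libraries other than fft2Δ replicate 3 and fft3Δ replicate 3 (adjusted p = 0.0504 to 0.3) and without replicate 1 of both groups (adjusted p = 0.2). Without fft3Δ replicate 3 its log2 fold change was 2.64. Tf2-11 (log2 fold change 1.37 ± 0.48, adjusted p = 0.12) and Tf2-13 (log2 fold change 2.19 ± 1.05, adjusted p = 0.3) were not called, although the groups did not overlap for Tf2-11. The lncRNA SPNCRNA.1287, next to Tf2-13 in RefSeq gene order, was named after its values were seen and had 33.5, 63.1 and 65.5 CPM in the fft2Δ-labelled libraries, against 6.04, 7.64 and 10.0 CPM in fft3Δ and 12.7, 6.09 and 6.45 CPM in WT (log2 fold change 2.82 ± 0.26, adjusted p = 1.9e-08).

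The chromosome ends held 26 of the 83 genes that fell. The class taken was the first 30 protein-coding genes from each end of chromosomes I and II in RefSeq gene order (ASM294v3), 120 genes, of which 89 were tested and 33 called, 7 higher and 26 lower. That is 37.1% of the class, against 3.68% of all protein-coding genes, and the median was -0.39. Without replicate 1 the counts were 7 higher and 23 lower, and without fft3Δ replicate 2 only 15 were lower. Several of these genes are copies of each other. The 89 have 81 distinct sets of values, of which 7 were called higher and 22 lower. Reads of near-identical copies could be split among them by the counting.

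The telomere-linked RecQ-type helicase gene tlh2 (SPBCPT2R1.08c, chromosome II) had 1.27, 2.86 and 0 CPM in the fft2Δ-labelled libraries, against 95.7, 90.7 and 152 CPM in fft3Δ and 3.92, 13.3 and 5.39 CPM in WT (log2 fold change -5.69 ± 0.50, adjusted p = 1.4e-08). SPAC750.08c had 0, 0.335 and 0 CPM in the fft2Δ-labelled libraries, against 16.2, 16.7 and 10.0 CPM in fft3Δ and 1.30, 0 and 1.32 CPM in WT (log2 fold change -5.86 ± 0.52, adjusted p = 1.9e-08). That value rests on fft2Δ replicate 2, the only fft2Δ-labelled library with reads there: without it the fitted value was -9.60, which is no bound. For both, the fft3Δ libraries were above all WT libraries. The fft2Δ-labelled libraries were below every WT library for tlh2 and overlapped WT for SPAC750.08c. SPBCPT2R1.04c had 0, 2.30 and 7.26 CPM in the fft2Δ-labelled libraries, against 23.3, 43.0 and 34.7 CPM in fft3Δ and 36.0, 13.7 and 11.1 CPM in WT (log2 fold change -4.22 ± 0.58, adjusted p = 2.3e-05), so that here the fft3Δ levels overlapped WT and the fft2Δ-labelled libraries were below every WT library. The pseudogene SPBCPT2R1.07c, chosen after its values were seen, had 0, 0 and 1.09 CPM in the fft2Δ-labelled libraries, against 25.6, 31.1 and 29.2 CPM in fft3Δ and 2.59, 0 and 1.90 CPM in WT, where the fft2Δ-labelled group holds a single count.

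Other genes of the class changed less. grt1 (SPBPB8B6.04c, chromosome II) had 1.25, 2.20 and 2.18 CPM in the fft2Δ-labelled libraries, against 7.58, 11.4 and 7.84 CPM in fft3Δ and 3.13, 0.887 and 3.22 CPM in WT (log2 fold change -2.27 ± 0.41, adjusted p = 0.00068). SPBPB8B6.02c had 0.876, 3.06 and 4.37 CPM in the fft2Δ-labelled libraries, against 8.21, 14.6 and 9.27 CPM in fft3Δ and 3.00, 0.887 and 2.58 CPM in WT (log2 fold change -2.22 ± 0.38, adjusted p = 0.0004). SPBPB2B2.06c had 5.01, 6.53 and 9.83 CPM in the fft2Δ-labelled libraries, against 23.4, 21.9 and 23.5 CPM in fft3Δ and 7.38, 5.32 and 10.3 CPM in WT (log2 fold change -1.79 ± 0.32, adjusted p = 0.00061). In all 3 genes the fft3Δ libraries were the highest and the fft2Δ-labelled libraries overlapped WT. SPAC212.02 had 1.68, 2.41 and 2.18 CPM in the fft2Δ-labelled libraries, against 8.66, 16.1 and 6.57 CPM in fft3Δ and 7.04, 3.93 and 3.77 CPM in WT (log2 fold change -2.34 ± 0.59, adjusted p = 0.017). That call was not kept without fft2Δ replicate 2 (adjusted p = 0.11), without fft3Δ replicate 2 (adjusted p = 0.22) and without replicate 1 of both groups (adjusted p = 0.063). ftm3 (SPAC750.04c, chromosome I), which shares its values with ftm2, had 1.63, 3.26 and 4.37 CPM in the fft2Δ-labelled libraries, against 5.05, 8.998 and 10.3 CPM in fft3Δ and 6.88, 2.96 and 4.08 CPM in WT (log2 fold change -1.49 ± 0.41, adjusted p = 0.031). The call was lost without any 1 of the 6 libraries other than fft3Δ replicate 1 (adjusted p = 0.057 to 0.16) and without replicate 1 of both groups (adjusted p = 0.1).

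Of the other genes of the ends that fell, eno102 (SPBPB21E7.01c, chromosome II), gal10 (SPBPB2B2.12c, chromosome II) and gal1 (SPBPB2B2.13, chromosome II) were singled out after their values were seen. The enolase gene eno102 had 35.2, 34.9 and 37.9 CPM in the fft2Δ-labelled libraries, against 100.1, 172 and 122 CPM in fft3Δ and 98.3, 55.8 and 49.4 CPM in WT (log2 fold change -1.78 ± 0.25, adjusted p = 3.3e-05). SPNCRNA.1302, which overlaps eno102 on the other strand, moved the other way, with 74.0, 133 and 145 CPM in the fft2Δ-labelled libraries, against 44.2, 49.3 and 66.3 CPM in fft3Δ and 107, 122 and 149.6 CPM in WT (log2 fold change 1.16 ± 0.16, adjusted p = 3.2e-05). For gal10, the epimerase of galactose use, the levels were 22.2, 43.1 and 40.4 CPM in the fft2Δ-labelled libraries, against 53.7, 95.4 and 73.4 CPM in fft3Δ and 54.9, 23.1 and 27.7 CPM in WT (log2 fold change -1.08 ± 0.22, adjusted p = 0.0025). The galactokinase gene gal1 had 27.7, 43.2 and 50.2 CPM in the fft2Δ-labelled libraries, against 49.2, 95.6 and 106 CPM in fft3Δ and 55.4, 48.8 and 30.3 CPM in WT (log2 fold change -1.03 ± 0.18, adjusted p = 0.00038). Only fft2Δ replicate 3, at 50.2 CPM, was above the lowest fft3Δ library, at 49.2 CPM.

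Of the 5 phosphate genes listed, pho84 (SPBC8E4.01c, chromosome II) and pho1 (SPBP4G3.02, chromosome II) fell (40%, against 1.7% of all protein-coding genes), and both also belong to the class at the ends. The phosphate transporter gene pho84 had 59.9, 94.9 and 67.8 CPM in the fft2Δ-labelled libraries, against 206, 264 and 248 CPM in fft3Δ and 107, 191 and 191 CPM in WT (log2 fold change -1.63 ± 0.20, adjusted p = 4.4e-06). The secreted acid phosphatase gene pho1 had 419.7, 406 and 401 CPM in the fft2Δ-labelled libraries, against 791, 925 and 906 CPM in fft3Δ and 189, 456 and 480.0 CPM in WT (log2 fold change -1.02 ± 0.26, adjusted p = 0.018). It was no longer called without any 1 of the 6 libraries other than fft2Δ replicate 1 (adjusted p = 0.066 to 0.19). The noncoding RNA nc-pho1, known to be transcribed across the pho1 promoter and chosen after its values were seen, had 27.7, 52.4 and 57.8 CPM in the fft2Δ-labelled libraries, against 46.3, 105 and 138 CPM in fft3Δ and 31.2, 95.0 and 81.0 CPM in WT (log2 fold change -1.04 ± 0.30, adjusted p = 0.047). The test was not passed without any 1 of the 6 libraries other than fft3Δ replicate 1 (adjusted p = 0.13 to 0.32), without replicate 1 of both groups (adjusted p = 0.12) and with the replicate number as a block (adjusted p = 0.061). Summed over the 5 phosphate genes the level was 571 to 635 CPM in the fft2Δ-labelled libraries, against 1108 to 1293 CPM in fft3Δ and 343 to 757 CPM in WT.

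The 7 genes of the ends that were higher in the fft2Δ-labelled libraries had log2 fold changes of 0.59 to 1.41, and the following were chosen after their values were seen. SPAC977.14c had 645, 908 and 964 CPM in the fft2Δ-labelled libraries, against 228, 386 and 368 CPM in fft3Δ and 788, 572 and 549 CPM in WT (log2 fold change 1.41 ± 0.13, adjusted p = 1.9e-08). Here the fft2Δ-labelled libraries overlapped WT in CPM, before scaling by the TMM factors, and the fft3Δ libraries were below both. SPBPB21E7.09 had 85.3, 129.8 and 123 CPM in the fft2Δ-labelled libraries, against 43.3, 81.2 and 64.9 CPM in fft3Δ and 139.5, 128 and 184 CPM in WT (log2 fold change 0.86 ± 0.15, adjusted p = 0.00034). The flavohemoglobin gene yhb1 (SPAC869.02c, chromosome I) had 119, 225 and 213 CPM in the fft2Δ-labelled libraries, against 65.7, 129.8 and 117 CPM in fft3Δ and 170.1, 153 and 175 CPM in WT (log2 fold change 0.85 ± 0.13, adjusted p = 0.00012), with fft2Δ replicate 1 inside the fft3Δ range. SPAC977.15, the neighbour of SPAC977.14c, had a log2 fold change of 0.89 ± 0.20 (adjusted p = 0.0083).

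**Figure D4:**
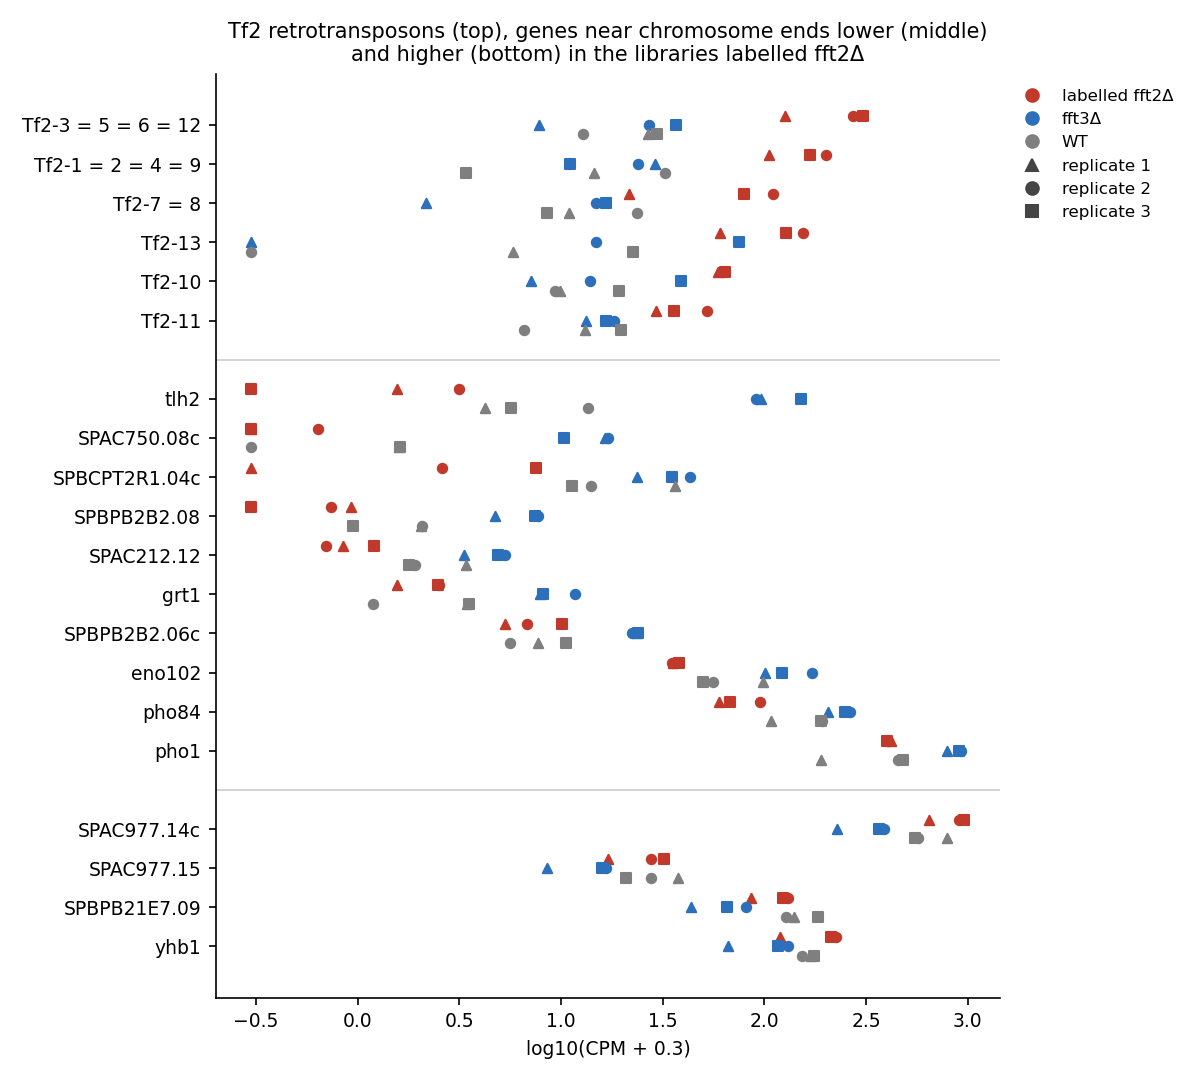
Levels by library, as log10(CPM + 0.3), of the 6 distinct Tf2 value sets, 10 genes of the chromosome ends that were lower and 4 that were higher in the fft2Δ-labelled libraries; symbols are replicates of the libraries labelled fft2Δ, of fft3Δ and of WT. For tlh2 and SPAC750.08c the fft3Δ libraries lie between 10.0 and 152 CPM and the fft2Δ-labelled libraries at or below 2.86 CPM.

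A further large fall lay next to the mating-type locus mat1 on chromosome II. SPBC23G7.10c had 0.626, 2.00 and 2.18 CPM in the fft2Δ-labelled libraries, against 72.6, 77.8 and 67.0 CPM in fft3Δ and 5.76, 3.55 and 3.87 CPM in WT (log2 fold change -5.57 ± 0.96, adjusted p = 0.00041). SPNCRNA.388, the lncRNA between SPBC23G7.10c and the mat1-Mc gene of the reference and chosen after its values were seen, had 0.125, 0.415 and 1.09 CPM in the fft2Δ-labelled libraries, against 14.5, 14.7 and 27.1 CPM in fft3Δ and 0, 0 and 0.645 CPM in WT (log2 fold change -5.62 ± 0.90, adjusted p = 0.00017). Both were high in the fft3Δ libraries alone. SPBC23G7.13c, on the same stretch, went the other way with 13.1, 20.02 and 21.6 CPM in the fft2Δ-labelled libraries, against 0.631, 2.43 and 3.56 CPM in fft3Δ and 2.00, 2.66 and 1.29 CPM in WT (log2 fold change 3.10 ± 0.42, adjusted p = 1.8e-05). It was high in the fft2Δ-labelled libraries alone.

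Outside these regions, the largest falls by the naming rule were in SPCC330.03c, meu6 (SPBC428.07, chromosome II) and SPAC27D7.09c. SPCC330.03c had 7.13, 6.32 and 8.73 CPM in the fft2Δ-labelled libraries, against 52.4, 96.4 and 65.6 CPM in fft3Δ and 24.7, 14.2 and 8.38 CPM in WT (log2 fold change -3.26 ± 0.31, adjusted p = 4.5e-08). meu6, a gene known to be upregulated in meiosis, had 3.88, 6.89 and 4.37 CPM in the fft2Δ-labelled libraries, against 25.9, 28.8 and 29.9 CPM in fft3Δ and 3.25, 5.32 and 1.29 CPM in WT (log2 fold change -2.33 ± 0.27, adjusted p = 1.3e-06). SPAC27D7.09c had 190.3, 205 and 183 CPM in the fft2Δ-labelled libraries, against 795, 626 and 629 CPM in fft3Δ and 253, 248 and 238 CPM in WT (log2 fold change -1.80 ± 0.20, adjusted p = 5.9e-07). In all 3 the fft3Δ libraries were above every WT library. mei2 (SPAC27D7.03c, chromosome I), which encodes the RNA-binding protein that starts meiosis, had 22.7, 32.5 and 28.4 CPM in the fft2Δ-labelled libraries, against 58.7, 70.7 and 70.6 CPM in fft3Δ and 26.9, 53.2 and 39.3 CPM in WT (log2 fold change -1.19 ± 0.20, adjusted p = 0.00026). meu6 overlaps clr4 on the other strand, and the library kit keeps the strand.

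Among the genes that rose and met the naming rule, gir2 (SPCC1393.09c, chromosome III) had the largest change, and the transcript facing it fell. gir2, whose budding yeast namesake binds the Gcn2 activator Gcn1, had 12.8, 11.3 and 18.2 CPM in the fft2Δ-labelled libraries, against 1.20, 1.45 and 1.97 CPM in fft3Δ and 11.2, 12.8 and 7.62 CPM in WT (log2 fold change 3.33 ± 0.39, adjusted p = 1.8e-06). The lncRNA SPNCRNA.1160, which overlaps gir2 on the other strand, was chosen after its values were seen. It had 2.00, 2.41 and 3.28 CPM in the fft2Δ-labelled libraries, against 32.2, 57.7 and 55.1 CPM in fft3Δ and 5.51, 6.21 and 6.45 CPM in WT (log2 fold change -4.30 ± 0.29, adjusted p = 6.2e-11). At this locus the fft2Δ-labelled libraries overlapped WT for gir2 and were below WT for SPNCRNA.1160, whereas fft3Δ had the lowest gir2 and the highest SPNCRNA.1160 of the 3 groups. Further genes that rose were chosen after their values were seen. psd1 (SPBC16E9.18, chromosome II), which encodes a phosphatidylserine decarboxylase, had 79.6, 109 and 106 CPM in the fft2Δ-labelled libraries, against 27.8, 39.3 and 30.6 CPM in fft3Δ and 116, 85.1 and 84.5 CPM in WT (log2 fold change 1.62 ± 0.14, adjusted p = 1.4e-08). The copper amine oxidase gene cao1 (SPAC2E1P3.04, chromosome I) had 252, 324 and 269 CPM in the fft2Δ-labelled libraries, against 122, 122 and 116 CPM in fft3Δ and 119, 159.7 and 238 CPM in WT (log2 fold change 1.27 ± 0.20, adjusted p = 0.00017). For psd1 the fft3Δ libraries were below every WT library, and for cao1 the fft2Δ-labelled libraries were above every WT library.

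Of the 79 antisense entries called 62 were lower in the fft2Δ-labelled libraries, but without fft2Δ replicate 2 only 30 were lower, and 22 higher. Antisense of fol3 (SPAC227.09, chromosome I), a gene of folate synthesis, was 0.125, 0.959 and 3.28 CPM in the fft2Δ-labelled libraries, against 4.42, 7.65 and 11.4 CPM in fft3Δ and 1.13, 0 and 0.645 CPM in WT (log2 fold change -3.18 ± 0.63, adjusted p = 0.0023). The ribosome biogenesis gene utp25 (SPCC1827.01c, chromosome III) had antisense levels of 1.25, 1.27 and 1.09 CPM in the fft2Δ-labelled libraries, against 5.05, 13.3 and 11.4 CPM in fft3Δ and 4.13, 2.66 and 1.93 CPM in WT (log2 fold change -2.92 ± 0.36, adjusted p = 4.3e-06). At both genes the fft2Δ-labelled libraries were below every fft3Δ library. Antisense of kin17 (SPBC365.09c, chromosome II) was 1.502, 2.44 and 2.18 CPM in the fft2Δ-labelled libraries, against 8.84, 21.7 and 17.1 CPM in fft3Δ and 3.38, 3.55 and 1.93 CPM in WT (log2 fold change -2.90 ± 0.33, adjusted p = 9e-07). For gem1 (SPCC320.04c, chromosome III), a mitochondrial GTPase gene, it was 0.25, 0.855 and 1.09 CPM in the fft2Δ-labelled libraries, against 3.79, 5.53 and 5.70 CPM in fft3Δ and 1.38, 0 and 0.645 CPM in WT (log2 fold change -2.89 ± 0.62, adjusted p = 0.0046).

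The antisense entries that rose numbered 17. Antisense of icl1 (SPBC1683.11c, chromosome II) was 5.26, 8.94 and 7.64 CPM in the fft2Δ-labelled libraries, against 2.53, 1.01 and 1.43 CPM in fft3Δ and 4.13, 4.43 and 9.03 CPM in WT (log2 fold change 2.58 ± 0.41, adjusted p = 0.00017). That call was not kept without fft3Δ replicate 2 (adjusted p = 0.072), with a log2 fold change of 1.80. At byr2 (SPBC1D7.05, chromosome II), which encodes the MAP kinase kinase kinase of the mating pathway, antisense was 7.64, 11.7 and 16.4 CPM in the fft2Δ-labelled libraries, against 1.26, 2.11 and 3.56 CPM in fft3Δ and 11.9, 7.98 and 2.58 CPM in WT (log2 fold change 2.43 ± 0.36, adjusted p = 6.7e-05). SPCC569.03 had antisense levels of 9.39, 13.9 and 17.5 CPM in the fft2Δ-labelled libraries, against 1.26, 3.53 and 3.16 CPM in fft3Δ and 9.51, 9.15 and 9.02 CPM in WT (log2 fold change 2.24 ± 0.25, adjusted p = 8.2e-07). For all 3 the fft2Δ-labelled libraries were above every fft3Δ library. Antisense of dgc1 (SPAC5H10.01, chromosome I) was 7.53, 7.10 and 15.3 CPM in the fft2Δ-labelled libraries, against 3.79, 1.56 and 2.85 CPM in fft3Δ and 10.6, 7.10 and 11.0 CPM in WT (log2 fold change 2.06 ± 0.54, adjusted p = 0.024). The call was lost without fft2Δ replicate 1 (adjusted p = 0.06) and without fft3Δ replicate 2 (adjusted p = 0.39), with log2 fold changes between 1.34 without fft3Δ replicate 2 and 2.50 without fft2Δ replicate 2. For SPCC794.03 it was 5.26, 8.24 and 4.37 CPM in the fft2Δ-labelled libraries, against 0.631, 2.11 and 2.14 CPM in fft3Δ and 3.75, 3.55 and 3.87 CPM in WT (log2 fold change 1.97 ± 0.37, adjusted p = 0.0012).

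Both strands were tested at 1682 protein-coding genes, and both were called at 8 of them. The directions were opposite at 7 and the same at 1. One of the 7 was hem14 (SPAC1F5.07c, chromosome I), the protoporphyrinogen oxidase gene of heme synthesis, whose sense level was 61.2, 110.2 and 105 CPM in the fft2Δ-labelled libraries, against 13.3, 42.2 and 32.1 CPM in fft3Δ and 105, 106 and 103 CPM in WT (a log2 difference of 1.62 ± 0.14, adjusted p = 1e-08). The antisense of hem14 was 2.75, 4.51 and 4.37 CPM in the fft2Δ-labelled libraries, against 21.5, 29.7 and 27.1 CPM in fft3Δ and 4.13, 2.66 and 1.93 CPM in WT (log2 fold change -2.73 ± 0.25, adjusted p = 1.9e-08). The fft3Δ libraries had the lowest sense and the highest antisense levels. At qns1 (SPCC553.02, chromosome III), the NAD synthase gene, sense was 138, 226 and 207 CPM in the fft2Δ-labelled libraries, against 90.3, 103 and 133 CPM in fft3Δ and 141, 169 and 189 CPM in WT (a log2 difference of 0.85 ± 0.12, adjusted p = 4e-05). Antisense of qns1 was 2.25, 2.02 and 0 CPM in the fft2Δ-labelled libraries, against 6.94, 11.6 and 10.7 CPM in fft3Δ and 3.25, 2.66 and 1.93 CPM in WT (log2 fold change -2.23 ± 0.42, adjusted p = 0.0013).

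The other genes of the 7 with strands called in opposite directions were the following. For icl1 the sense log2 fold change was -0.69 ± 0.20 (adjusted p = 0.042) beside 2.58 for its antisense. The sense call was lost without any 1 of the 6 libraries other than fft2Δ replicate 1 (adjusted p = 0.073 to 0.28) and with the replicate number as a block (adjusted p = 0.06). SPCC569.03 had a sense change of -1.10 ± 0.23 (adjusted p = 0.0042) beside 2.24. The sense call was lost without fft2Δ replicate 2 (adjusted p = 0.054). The heterochromatin gene rik1 (SPCC11E10.08, chromosome III), a subunit of the Clr4 methyltransferase complex, had 26.4, 55.9 and 61.1 CPM in the fft2Δ-labelled libraries, against 20.2, 29.4 and 37.8 CPM in fft3Δ (log2 fold change 0.71 ± 0.18, adjusted p = 0.023) and an antisense change of -1.47 ± 0.39 (adjusted p = 0.027). The sense call was lost without fft2Δ replicate 2 (adjusted p = 0.095) and without fft3Δ replicate 2 (adjusted p = 0.25). The antisense call was lost without any 1 of the 6 libraries other than fft3Δ replicate 1 (adjusted p = 0.055 to 0.23) and without replicate 1 of both groups (adjusted p = 0.093). For slx4 (SPAC688.06c, chromosome I), a subunit of a structure-specific nuclease, the sense change was 2.89 ± 0.82 (adjusted p = 0.041) and the antisense change -2.13 ± 0.32 (adjusted p = 7.9e-05). The sense call was lost without fft2Δ replicate 3 (adjusted p = 0.067), without fft3Δ replicate 2 (adjusted p = 0.61) and without fft3Δ replicate 3 (adjusted p = 0.11). The log2 fold change of slx4 was 1.42 without fft3Δ replicate 2, and 4.57 without fft3Δ replicate 1. fft3 itself was among the 7. Over all genes with both strands tested, the sense change was above 0 at 41 of the 60 whose antisense fell and below 0 at 10 of the 16 whose antisense rose. As background, the sense change was above 0 at 2553 of all 4870 protein-coding genes tested. Whether the strands oppose each other in general was not tested.

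**Figure D5:**
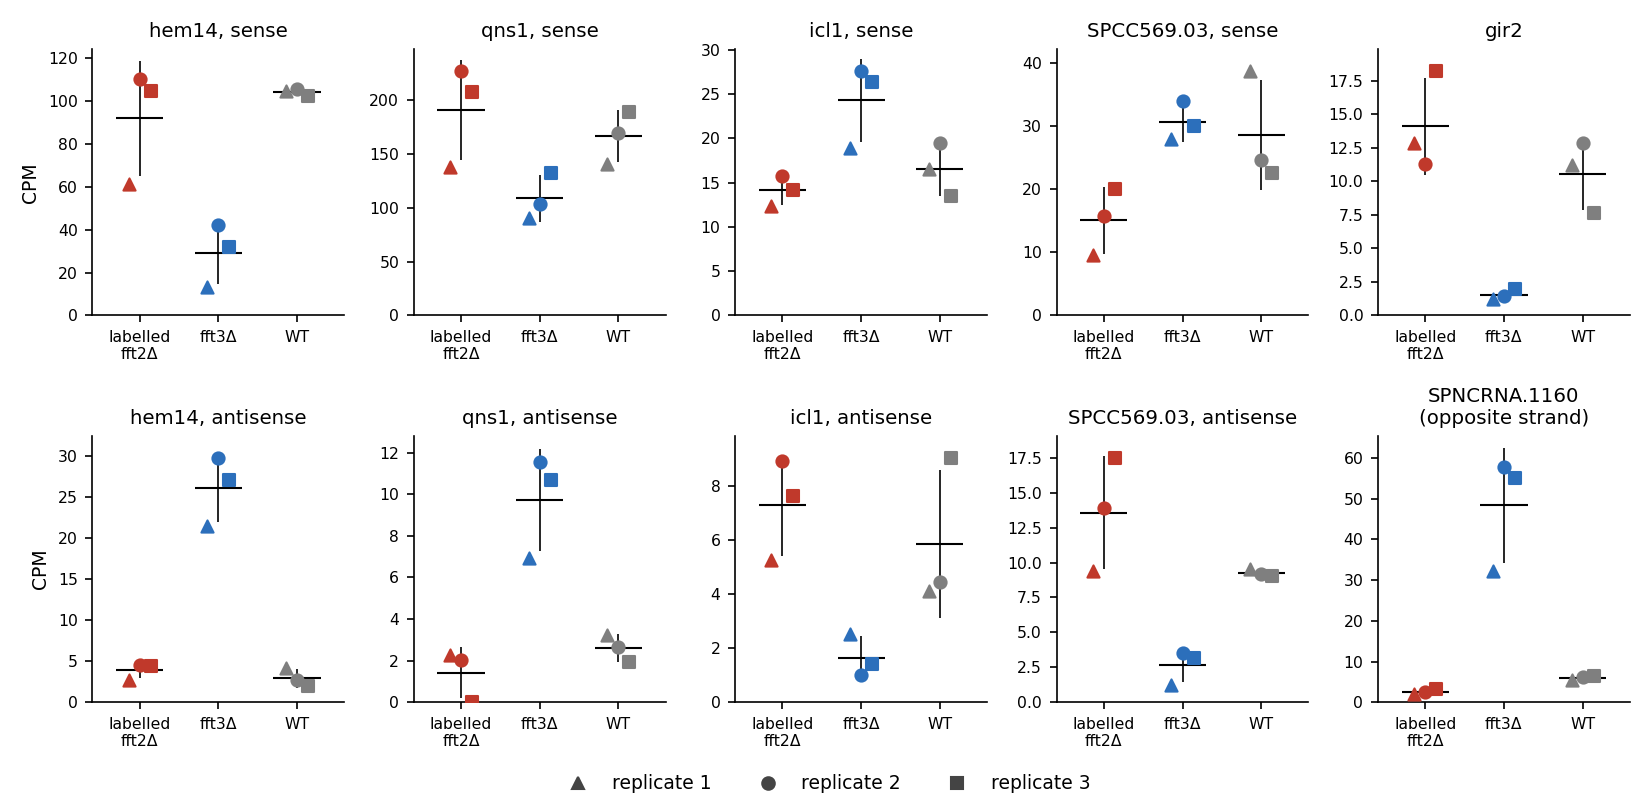
Sense (top) and antisense (bottom) levels in CPM at hem14, qns1, icl1 and SPCC569.03, and of gir2 with SPNCRNA.1160 on the other strand, in the libraries labelled fft2Δ, in fft3Δ and in WT; symbols are replicates, bars group means and whiskers the SD (n = 3). The strands move in opposite directions at each of these loci.

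Reads antisense to one gene can belong to a neighbour on the other strand. Of the 79 antisense entries called, 22 lie over genes that overlap another protein-coding gene on the opposite strand, against 851 of the 1775 tested. The share of all counts on antisense entries of protein-coding genes was 0.802%, 1.14% and 1.15% in the fft2Δ-labelled libraries, against 0.922%, 1.25% and 1.24% in fft3Δ and 1.07%, 0.963% and 0.966% in WT. The means were 1.03% ± 0.198 (SD, n = 3) for fft2Δ-labelled and 1.14% ± 0.186 (SD, n = 3) for fft3Δ. The share was lower in the fft2Δ-labelled library in 3 of 3 same-numbered pairs. The difference of -0.11 percentage points was within the spread between replicates of a group, in which replicate 1 was the lowest in both groups. The exact two-sided permutation p was 0.5, where 3 against 3 cannot go below 0.1. That test does not use the replicate numbers, so it does not judge the differences within pairs. The difference was -0.10 percentage points without replicate 1 of both groups. It was 0.0065 percentage points, the other way, without fft2Δ replicate 1 alone, which leaves the low fft3Δ replicate 1 without its same-numbered library.

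Among lncRNAs, 73 of 885 tested were called (8.25%), 23 higher (2.6%) and 50 lower (5.65%) in the fft2Δ-labelled libraries, with a median over those tested of -0.33. Leaving out 1 library at a time left between 11 and 24 higher and between 18 and 68 lower, with the fewest of both without fft3Δ replicate 2. Those named here were chosen after their values were seen. Both RNase RNAs fell. rrk1, the RNA of RNase P, had 7.39, 3.50 and 6.55 CPM in the fft2Δ-labelled libraries, against 22.1, 26.5 and 22.1 CPM in fft3Δ and 15.5, 5.32 and 7.09 CPM in WT (log2 fold change -1.96 ± 0.42, adjusted p = 0.0044). mrp1, the RNA of RNase MRP, had 4.88, 4.41 and 7.64 CPM in the fft2Δ-labelled libraries, against 18.9, 38.2 and 28.5 CPM in fft3Δ and 9.01, 7.10 and 3.87 CPM in WT (log2 fold change -2.42 ± 0.43, adjusted p = 0.00061). SPNCRNA.1094 is next to a ribosomal RNA gene in RefSeq gene order and does not overlap it. It had 151, 355 and 338 CPM in the fft2Δ-labelled libraries, against 588, 1277 and 1262 CPM in fft3Δ and 475, 578 and 368 CPM in WT (log2 fold change -1.87 ± 0.25, adjusted p = 1.5e-05). RNA classed as ribosomal took 1.16%, 0.695% and 0.927% of counts in the fft2Δ-labelled libraries, against 1.73%, 1.51% and 1.42% in fft3Δ and 0.824%, 1.01% and 0.812% in WT, with groups that did not overlap and the smallest p possible, 0.1, in the exact permutation test. These RNAs largely lack a polyA tail, and the libraries were made from polyA RNA. The call of rrk1 was lost without fft2Δ replicate 2 (adjusted p = 0.081), with a log2 fold change of -1.31, and without fft2Δ replicate 1 it was -2.72.

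Further noncoding entries rose. SPNCRNA.1259, which overlaps the peroxiredoxin gene tpx1 on the same strand and can share its reads, had 3.15, 6.84 and 9.83 CPM in the fft2Δ-labelled libraries, against 0, 0.302 and 0.713 CPM in fft3Δ and 0 CPM in each library in WT (log2 fold change 4.31 ± 0.80, adjusted p = 0.0013). The adjacent SPNCRNA.1258 carried reads on the reverse strand at 10.0, 10.0 and 17.8 CPM in the fft2Δ-labelled libraries, against 0 CPM in each fft3Δ library and 0.786, 1.07 and 0.692 CPM in WT. Against the value of 3 counts over the fft3Δ group, 0.232 CPM, that is at least 43.8-fold higher in the fft2Δ-labelled libraries. SPNCRNA.898 had 6.29, 11.8 and 14.2 CPM in the fft2Δ-labelled libraries, against 1.26, 1.41 and 2.85 CPM in fft3Δ and 11.9, 7.10 and 11.6 CPM in WT (log2 fold change 2.74 ± 0.32, adjusted p = 1.6e-06). The call of SPNCRNA.1259 was lost without fft3Δ replicate 2 (adjusted p = 0.06).

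Gene lists for pathways and cell states showed few calls, to be read against 1.97% of all protein-coding genes called higher and 1.7% called lower. Of 13 nitrogen starvation genes 1 fell (7.69%), mei2, and the list had a median of -0.35. Of 7 Pap1 targets obr1 alone was called (14.3%), lower, and of 14 stress response genes pyp2 (SPAC19D5.01, chromosome I) alone was called (7.1%), higher. pyp2, a phosphatase of the stress kinase Sty1, had 276, 487 and 432 CPM in the fft2Δ-labelled libraries, against 206, 180.4 and 256 CPM in fft3Δ and 127, 88.7 and 106 CPM in WT (log2 fold change 0.89 ± 0.21, adjusted p = 0.01). This call did not hold without fft3Δ replicate 2 (adjusted p = 0.14). Of 11 iron uptake genes 1 fell (9.09%), the siderophore transporter gene str1 (SPBC4F6.09, chromosome II) (log2 fold change -0.66 ± 0.16, adjusted p = 0.017). It was no longer called without any 1 of the 6 libraries other than fft3Δ replicate 1 and fft3Δ replicate 3 (adjusted p = 0.07 to 0.65) and without replicate 1 of both groups (adjusted p = 0.087). Of 20 heterochromatin and RNAi genes only rik1 was called (5.0%).

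Of 81 tested genes named mug or meu after meiotic expression, 2 rose and 2 fell, or 4.94% called, against 3.68% of all protein-coding genes. mug108 (SPAC29A4.12c, chromosome I) had 192, 292 and 248 CPM in the fft2Δ-labelled libraries, against 135, 111 and 149 CPM in fft3Δ and 121, 70.1 and 65.8 CPM in WT (log2 fold change 0.92 ± 0.21, adjusted p = 0.0091). The test was not passed without fft3Δ replicate 2 (adjusted p = 0.11). mug157 (SPAC12B10.16c, chromosome I) had 127, 172 and 176 CPM in the fft2Δ-labelled libraries, against 88.4, 128 and 120.5 CPM in fft3Δ (log2 fold change 0.54 ± 0.12, adjusted p = 0.0071), with overlapping groups. Besides meu6, mug14 (SPBC359.06, chromosome II) fell (log2 fold change -0.97 ± 0.28, adjusted p = 0.04). That call was not kept without any 1 of the 6 libraries other than fft3Δ replicate 1 (adjusted p = 0.0503 to 0.24). Of 5 M cell genes tested mam4 (SPAC10F6.12c, chromosome I), which encodes the methyltransferase of M-factor, was the only call (20%) and fell (log2 fold change -0.97 ± 0.24, adjusted p = 0.014). The call was lost without fft2Δ replicate 1 (adjusted p = 0.095), without fft3Δ replicate 2 (adjusted p = 0.3) and without fft3Δ replicate 3 (adjusted p = 0.11). Summed M cell markers were 36.3 to 101 CPM in the fft2Δ-labelled libraries, against 40.4 to 78.8 CPM in fft3Δ and 38.0 to 60.3 CPM in WT, in strains labelled h+. P cell markers summed to 5.63 to 14.2 CPM in fft2Δ-labelled, against 7.33 to 12.8 CPM in fft3Δ and 5.32 to 9.03 CPM in WT.

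The following lists had 0 calls in edgeR's test and 0 in DESeq2. At an unadjusted p under 0.05, edgeR had 1 higher and 0 lower of 15 Snf2-family ATPases, 0 and 3 of 23 wtf genes, which are meiotic drivers and their antidotes, 1 and 0 of 11 histone genes, 0 and 1 of 12 heat shock chaperones and 0 and 1 of 139 cytosolic ribosomal protein genes. It had 1 and 0 of 13 G1/S genes driven by the factor MBF, 0 and 4 of 7 septin genes, 1 and 0 of 10 flocculin genes, 1 and 0 of 4 zinc genes, and 1 and 0 of 3 P cell genes. Neither direction had any at that threshold for 12 glucose-repressed and hexose transport genes, 3 uracil-regulated genes and 3 genes of the mitochondrial genome. Medians of these lists lay between -0.28 for the septins and 0.32 for the P cell genes. Markers of meiotic cells summed to 43.4 to 89.6 CPM in fft2Δ-labelled, against 57.4 to 87.7 CPM in fft3Δ and 43.2 to 57.7 CPM in WT. Markers of stationary or stressed cells summed to 7947 to 8370.4 CPM in fft2Δ-labelled, against 7167 to 7803 CPM in fft3Δ and 6648 to 10483 CPM in WT. Of these markers 0 were called, by edgeR or DESeq2, and 0 had an unadjusted p under 0.05. The 5 markers of nitrogen-starved cells, mei2 among them, summed to 346 to 429 CPM in fft2Δ-labelled, against 488 to 624 CPM in fft3Δ and 215 to 364 CPM in WT, and mei2 alone was called.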

How the data were processed

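PolyA RNA of untreated cells was sequenced, and the authors quantified each library against ASM294v2 (Ensembl 55) with kallisto, whose version is not given in the sources used here. The deposited files hold estimated counts and TPM for 13994 entries, namely 6997 transcripts and the reverse complement of each, read here as sense and antisense; 6861 transcripts matched a RefSeq gene (ASM294v3, used for names, classes and gene order), 5112 of them protein-coding. No feature of that annotation marks the centromeres, so no class was made for them, and no coordinates or sequences are given because the builds differ.

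Estimated counts were rounded and fitted in edgeR 4.0.16 (R 4.3.3, limma 3.58.1) over the 30 libraries and 10 groups of the batch, with TMM factors, the quasi-likelihood test on entries that passed filterByExpr (min.count 10, min.total.count 15) and Benjamini-Hochberg adjustment over 8485 entries. All adjusted p-values given are edgeR's unless DESeq2 (1.42.0), the study's tool and an alternative here, is named. The deposited TPM entered only a second version of the antisense share. Shares were compared by exact permutation tests.

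The members and gene lists were chosen with earlier results of these data known. Genes named by rule are the 3 paralogs and ura4, the 10 largest rises and falls among protein-coding genes (5 among antisense entries) that were called with and without replicate 1, did not overlap between groups and averaged at least 8 CPM (2 CPM for antisense) in the higher group, the 3 largest lost without replicate 1, and up to 4 called members of each list. All others were named after their values were seen, also where the text does not say so beside them. That holds for SPNCRNA.1302, bio2, hem14, qns1, slx4 and the genes given under other observations. One gene that the rule names is not reported here.

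Same-numbered libraries deviated together from their group means (r = 0.73, 0.27 and 0.52 across 3775 genes for numbers 1, 2 and 3), and by a threshold of r above 0.1 the numbers were taken as pairing the samples. Other numbers also deviated together (r = 0.50 for fft2Δ 2 with fft3Δ 3, 0.52 for fft2Δ 3 with fft3Δ 2), so that replicate 1 alone stands apart, and the labels state no shared culture or day. The alternatives were other normalizations, filters and tools, the 2 groups alone, a replicate block, and each library left out. Of 16 Snf2 genes, 13 chaperone genes and 6 P cell genes listed, 15, 12 and 4 were matched. Intervals of counts cover counting error only.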

Additional observations from a re-analysis of the deposited data

How the results depend on the processing

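Among the alternatives run, 179 protein-coding and 79 antisense calls became 56 and 16 where the 2 groups were fitted alone. With a replicate block in that fit they became 109 and 24. The fit of 2 groups leaves fewer libraries to estimate the spread, and the spread it finds is also larger. Its common biological coefficient of variation was 0.262, against 0.184 over all 10 groups. The main fit thus takes a smaller spread from the other groups of the batch. The replicate block over the whole batch gave 178 (102 higher, 76 lower) and 74 (17 higher, 57 lower). Apart from icl1 sense and nc-pho1, it changed no named call. That block fits 1 shift per replicate number for all 10 groups, so it cannot fully take up a shift that only these 2 groups share. Leaving out 1 library at a time gave 93 to 249 protein-coding and 31 to 95 antisense calls, and an fft2 difference of 0.448 to 0.93 where replicate 1 of both groups is counted among these. DESeq2 called 168 and 66, TMM factors from protein-coding entries gave 181 and 80, and DESeq2 size factors gave 186 and 81. Without a low-count filter 105 protein-coding genes were higher and 50 lower, and with at least 1 CPM in 3 libraries 120 were higher and 46 lower, against 96 and 83. Leaving WT replicate 1 out of the fit, chosen after seeing the data, gave 214 and 87. The fft2 difference of 0.62 was 0.64 (adjusted p = 0.28) in the 2 groups alone and 0.67 (adjusted p = 0.17) there with the replicate block. The antisense share difference was -0.215 to 0.0065 percentage points over the libraries left out, above 0 without fft2Δ replicate 1. Of 44 called features named by rule, 26 kept their call under every alternative, and none reversed. With 915980 counts in fft2Δ replicate 3, entries under 3.28 CPM are limited by depth there.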

Other observations

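A few genes were far higher in replicate 1 of both mutants than in their replicates 2 and 3. SPAC23C11.06c had 276, 0 and 0 CPM in the fft2Δ-labelled libraries, against 249, 0 and 0.761 CPM in fft3Δ and 0.369, 0.0242 and 0 CPM in WT. SPAC27E2.11c had 179.6, 0 and 4.45 CPM in the fft2Δ-labelled libraries, against 222, 0 and 5.36 CPM in fft3Δ and 1.58, 9.84 and 33.4 CPM in WT. The histone H2A gene hta1 had 103, 40.6 and 42.8 CPM in the fft2Δ-labelled libraries, against 107, 20.9 and 24.5 CPM in fft3Δ. The ribosomal protein gene rps29 had 937, 244 and 509.8 CPM in the fft2Δ-labelled libraries, against 1142, 328 and 548 CPM in fft3Δ.

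The log2 fold change also moved with coding length. In 4 bins of the protein-coding genes of nearly equal size by length, shortest first, its median was -0.08, -0.01, 0.04 and 0.11, and without replicate 1 it was -0.18, -0.03, 0.08 and 0.24. The share of genes called was 2.95%, 4.34%, 3.96% and 3.45% in these bins.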
